A study of Mus musculus with 6 samples.

Results

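Transcript levels of 40 genes that carry proteins into the endoplasmic reticulum (ER) and glycosylate them there were described in mouse prostate luminal cells, the secretory cells that line the prostate's glands. The 40 genes were chosen by name from 24346 gene symbols in the tables, by a list of names that uses no threshold on their values. That list was drawn up with earlier results of these data known. They fall into the signal recognition particle (SRP) with its receptor (8 genes), the translocon (10), signal peptidase (5), the oligosaccharyltransferase (8) and the ER membrane protein complex, or EMC (9). A total of 19 of the 40 genes were lower in cells from Csf1-transgenic mice, against 7.47% of all tested genes. None was higher, against 24.9% of all tested genes. All 5 signal peptidase genes were among the lower genes, while 1 of the 9 EMC genes was, Emc9. Whether the zeros listed for Emc9 come from an overlap with another gene was not tested. Without Emc9, 18 of 39 genes were lower.

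Secretory and membrane proteins are recognised by SRP as they leave the ribosome and are handed to the SRP receptor and the Sec61 channel. Signal peptidase then removes the signal peptide, and the oligosaccharyltransferase attaches a preassembled glycan to asparagines of the growing chain, while the EMC inserts certain transmembrane segments into the membrane. Luminal prostate cells secrete large amounts of a few proteins into the prostatic fluid and so depend heavily on this route.

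The transgenic group, CSF1, came from C57BL/6 mice aged 4 months in which the rat probasin promoter, active in prostate luminal epithelium, drove a mouse Csf1 transgene. Csf1 encodes colony stimulating factor 1, a growth factor of macrophages. The WT group came from wild-type littermates, and cells of both groups were isolated by fluorescence-activated sorting with markers not given in the sources used here. Each group had 3 libraries, numbered 3, 5 and 8 after their titles. Neither separate animals nor pools are stated in the labels for these libraries, so a p-value here reflects the spread among the sequenced samples, which may be technical.

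RNA was measured by sequencing, and levels are the authors' FPKM (fragment abundance corrected for transcript length and for library size), summed here over the transcripts of a gene. Changes are differences of log2(FPKM + 1), CSF1 minus WT, with their standard error (SE); this scale understates changes of low genes. A gene was called where limma's adjusted p, over the 10951 genes that averaged 1 FPKM or more, was under 0.05. All 40 genes passed this filter, and 39 were above 0 in every library.

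Levels of Csf1 itself were 1082, 1326 and 1678 FPKM in CSF1, against 1.54, 2.25 and 3.98 FPKM in the WT replicates (log2 change 8.60, limma adjusted p 7.84e-07). The groups were far apart, as the labels state, although transgenic and endogenous Csf1 transcripts were not separated. The tables do not give fragment totals. The ratio of read coverage to FPKM, which rises with depth, was 4.17 to 5.01 in CSF1 libraries and 2.72 to 3.50 in WT libraries, and 11102 to 11231 genes exceeded 1 FPKM in CSF1 libraries, against 9926 to 10089 in WT libraries.

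Markers of other cells differed between the groups. All 12 macrophage markers were higher in CSF1, with summed levels of 810, 1003 and 3271 FPKM in CSF1 replicates 3, 5 and 8, against 25.6, 32.8 and 128 FPKM in the WT replicates; the most abundant were Lyz2 and Cd14. Every tested basal (3, most abundant Krt15 and Krt14), stromal (6, Dcn and Acta2), endothelial (2, Plvap and Pecam1) and T cell marker (2, Cd3g and Cd2) was also higher in CSF1. Of 5 tested B and plasma cell markers, 4 were higher, among them Jchain, and Derl3 was lower. Derl3 had 112, 123 and 110 FPKM in the WT replicates, where Jchain had 0.813, 0.741 and 3.39 FPKM. Which cells the Derl3 transcripts came from was not tested. With libraries of the same number paired, Mzb1 was not past the threshold (limma adjusted p 0.0505, against 0.0420 without). Of 12 luminal markers, 3 were higher (Epcam, Cdh1 and Tmprss2) and 1 was lower (Hoxb13), and their summed level ranged from 10236 to 26331 FPKM in CSF1 and from 17562 to 45859 FPKM in WT. The 2 most abundant luminal markers, Pbsn and Msmb, did not pass the test, Krt8 was higher with pairing (adjusted p 0.0452, against 0.309 without), and no marker on any list was at 0 in all 6 libraries. In such bulk samples, fewer cells of a type and less RNA per cell cannot be told apart.

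Of the 40 genes, 19 were lower in CSF1, or 47.5%, against 7.47% of all tested genes, and 0 were higher, against 24.9% of all tested genes (32.4% in either direction). In the same limma test, 26 of the 40 were lower and 1 was higher (Emc1) at an unadjusted p under 0.05, against 11.2% of all tested genes lower and 31.4% higher. The 3 CSF1 values lay below the 3 WT values without overlap for 26 genes (65%), against 13.1% of all tested genes, and above them for 2 genes, Emc1 and Emc6 (5%), against 34.7% (47.7% in either direction). The median log2 change of the 40 genes was -0.43, while that of all tested genes was 0.17. The share of genes called lower depended on single libraries and on scaling: without WT replicate 5 there were 478 lower genes in all (4.32% of those tested) and 13 among the 40, and without WT replicate 8 there were 526 (4.77%) and 14, against 818 and 19 with all libraries. When libraries were rescaled, 33 (quantile normalization) or 34 (median-ratio scaling) of the 40 genes were lower, against 21.6% and 16.0% of all tested genes in the same order, and still none was higher. The higher share of all calls was 41.8% and 54.0%, against 77.0% as deposited.

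**Figure D1:**
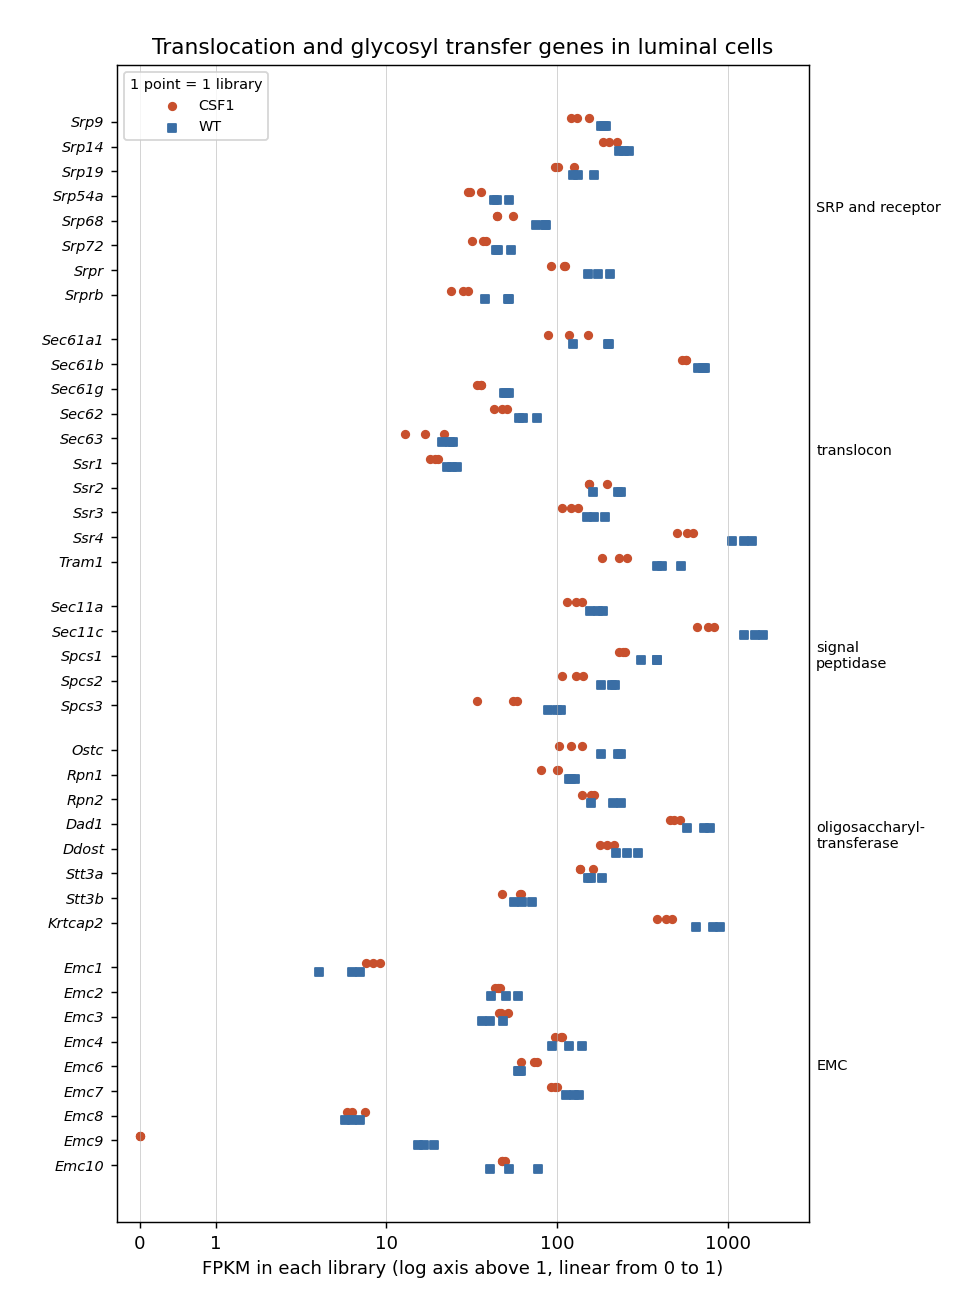
FPKM of each of the 40 genes in each library on an axis that is logarithmic above 1, with CSF1 libraries as circles and WT libraries as squares, 3 per group. The CSF1 points of all 5 signal peptidase genes lie left of the WT points, those of 5 EMC genes overlap with them, and Emc9 is listed at 0 in CSF1.

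Summed over the 40 genes, the level was 5973, 6515 and 5433 FPKM in CSF1 replicates 3, 5 and 8, or 5974 ± 541 FPKM, against 9326 ± 1069 FPKM in WT (SD, n = 3 each). The groups did not overlap, and the CSF1 mean was 64.1% of the WT mean. These genes held 1.003% to 1.25% of all FPKM in CSF1 libraries and 1.61% to 1.90% in WT libraries. CSF1 replicate 8, with the highest macrophage marker sum, had the lowest sum of these genes. It had the lowest of the 3 CSF1 values for 29 of the 39 genes above 0. In WT, replicate 8 had the highest macrophage marker sum (128 FPKM) and also the highest sum of these genes (10301.5 FPKM). WT replicate 3 had the lowest of both (25.6 and 8184 FPKM) and the lowest of the WT values for 31 of the same 39. Without CSF1 replicate 8, 13 of the 40 genes were lower, against 5.97% of all tested genes, and none was higher. The part of other cell types or of depth in these differences was not tested.

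**Figure D2:**
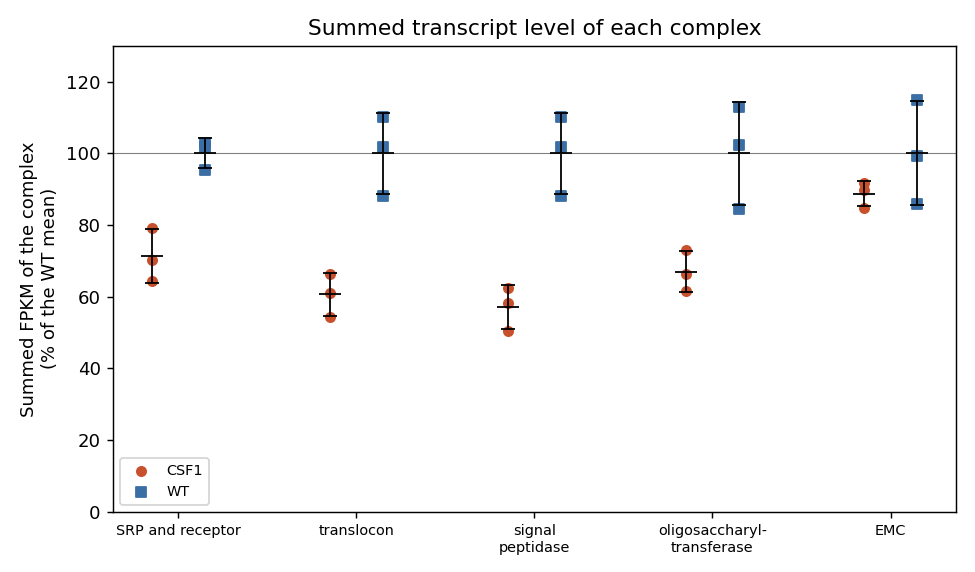
Summed FPKM of each complex as a percentage of the WT mean, with 1 point per library and bars at the mean ± SD of the 3 libraries of a group. Signal peptidase stands at 57.1% of WT in CSF1 and the EMC at 88.8%, the only complex whose groups overlap.

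At the first step of the route, 5 of 8 genes were lower in CSF1, against 7.47% of all tested genes. The 8 genes of SRP and its receptor summed to 695 ± 73.3 FPKM in CSF1 and 975 ± 40.7 FPKM in WT (SD, n = 3 each), or 71.3% of WT. For 7 of them, the CSF1 values lay below all WT values, against 13.1% of all tested genes. Their median log2 change was -0.49, which is 0.66 below that of all tested genes. The receptor was lower in both subunits. Srpr, the receptor subunit that docks SRP, had 110.6, 109 and 91.5 FPKM in CSF1 replicates 3, 5 and 8, against 152, 174 and 203 FPKM in the WT replicates (log2 change -0.76 ± 0.15 SE, limma adjusted p 0.00543). Srprb, the membrane-anchored subunit, had 28.2, 30.1 and 23.96 FPKM in CSF1, against 38.1, 51.8 and 52.0 FPKM in WT (-0.76 ± 0.17, adjusted p 0.00896). Neither gene's groups overlapped.

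Among the SRP proteins, Srp68, part of the Srp68-Srp72 pair that binds the particle's RNA, changed most, with 44.3, 55.4 and 44.7 FPKM in CSF1, against 75.6, 86.2 and 84.6 FPKM in WT (log2 change -0.76 ± 0.14 SE, limma adjusted p 0.00353). Its groups were well apart. Srp72, its partner, had 31.8 to 38.1 FPKM in CSF1 and 44.1 to 53.5 FPKM in WT, without overlap, at an adjusted p of 0.0559, or 0.0422 with libraries of the same number paired. Srp9, which with Srp14 slows translation until the ribosome has docked, was lower (-0.47, adjusted p 0.0252), while Srp14 had 186 to 224 FPKM in CSF1 and 231 to 265 FPKM in WT (adjusted p 0.122). Srp19, which helps Srp54 join the RNA, overlapped between groups (adjusted p 0.117, or 0.0377 with pairing). Srp54a encodes the GTPase that binds the signal sequence and had 31.1, 35.6 and 30.3 FPKM in CSF1, against 44.6, 42.7 and 52.3 FPKM in WT (adjusted p 0.0226). Srp9 was not past the threshold without CSF1 replicate 3 or 8 or WT replicate 3 or 5 (adjusted p 0.0585 to 0.0862), nor was Srp54a without CSF1 replicate 3 or 8 or WT replicate 8 (0.0575 to 0.0709). Srp54b and Srp54c are close copies of Srp54a and were lower by similar amounts (log2 changes of -0.49 and -0.47), and the level of each copy is uncertain because reads can be split between them.

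The Srpr promoter is shown because Srpr was the only gene of the 31 with a RefSeq promoter window (250 bases before to 50 after the start of transcription, build GRCm38.p6) that held TGACGTG, the core letters bound by Xbp1 and Atf6, transcription factors of the unfolded protein response. On either strand, 2.22% of the windows of 27025 genes held these letters. The 250 bases upstream of Srpr, at chr9:35210953-35211202 on the + strand, are given with the match in capitals.
Srpr: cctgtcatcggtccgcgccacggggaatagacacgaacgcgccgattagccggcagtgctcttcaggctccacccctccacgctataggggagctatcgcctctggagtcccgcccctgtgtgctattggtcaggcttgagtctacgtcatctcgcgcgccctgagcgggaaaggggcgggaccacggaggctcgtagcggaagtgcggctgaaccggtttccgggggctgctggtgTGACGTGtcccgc
A match of letters is a description of the sequence and no evidence that a factor binds there.

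Of the translocon genes, 5 of 10 were lower, by unequal amounts, against 7.47% of all tested genes. The 10 genes summed to 1876 ± 186 FPKM in CSF1 and 3093 ± 347 FPKM in WT (SD, n = 3 each), or 60.7% of WT. Of them, 7 had groups without overlap, all with CSF1 below, against 13.1% of all tested genes. The median log2 change was -0.48, which is 0.65 below that of all tested genes. The channel itself, Sec61a1, Sec61b and Sec61g, summed to 76.2% of WT, and the TRAP complex beside it (Ssr1 to Ssr4), which assists the insertion of some signal sequences, to 53.9%. Ssr4 carried most of the TRAP difference. It had 579.7, 624 and 506 FPKM in CSF1 replicates 3, 5 and 8, against 1065, 1238 and 1377 FPKM in the WT replicates (log2 change -1.10 ± 0.15 SE, limma adjusted p 0.000777), and both of its transcripts were lower by the same amount (-1.10 each). Of the other TRAP subunits, Ssr3 was lower (107 to 133 FPKM in CSF1, against 151 to 192 FPKM in WT, adjusted p 0.0333), Ssr1 had 17.97 to 20.02 FPKM in CSF1 and 22.7 to 25.8 FPKM in WT (adjusted p 0.0834), and the groups of Ssr2 overlapped (adjusted p 0.240). Ssr3 was past the threshold without CSF1 replicate 5, but not without any other single library (adjusted p 0.0526 to 0.0936) or without the filter on low genes (0.051).

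Tram1, a membrane protein that touches signal sequences entering the channel, had 231, 258 and 182 FPKM in CSF1, against 387, 409 and 533 FPKM in WT (log2 change -0.98 ± 0.18 SE, limma adjusted p 0.00347). Its highest CSF1 value was below its lowest WT value. Of the channel subunits, Sec61a1, which forms the pore, had 118, 152 and 88.4 FPKM in CSF1, against 124, 202 and 199.9 FPKM in WT, with overlap (adjusted p 0.125). Sec61b had 538 to 567 FPKM in CSF1 and 669 to 736 FPKM in WT, without overlap, at an adjusted p of 0.0508, or 0.0451 with pairing. The small subunit Sec61g was lower, with 35.8, 35.6 and 33.9 FPKM in CSF1, against 48.7, 50.5 and 52.2 FPKM in WT (adjusted p 0.0108). Of its 3 transcripts, NM_001109971 alone was lower (log2 change -0.98, adjusted p over all transcripts 0.00604). It made up 37.3% to 43.1% of the gene's FPKM in CSF1 and 47.0% to 63.6% in WT. Across the 5 genes with more than 1 transcript, 4 transcripts were called and all were lower, while 5.78% of all tested transcripts were lower and 19.7% higher. The 4 belong to Sec61g, Ssr4 and Dad1, which were already called lower as genes. In Dad1, Emc1 and Emc6, a single transcript held 100% of the gene's FPKM, so its test draws on the same values as the gene's. The division of reads among the short, largely shared transcripts of Sec61g is an estimate. Sec62, which serves proteins that enter after translation, was lower (log2 change -0.48, adjusted p 0.0330), whereas Sec63, its partner, overlapped (12.9 to 21.8 FPKM in CSF1 and 21.1 to 24.5 FPKM in WT, adjusted p 0.128). Sec62 kept its call without WT replicate 3, but not when another single library was left out (adjusted p 0.0535 to 0.138).

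**Figure D3:**
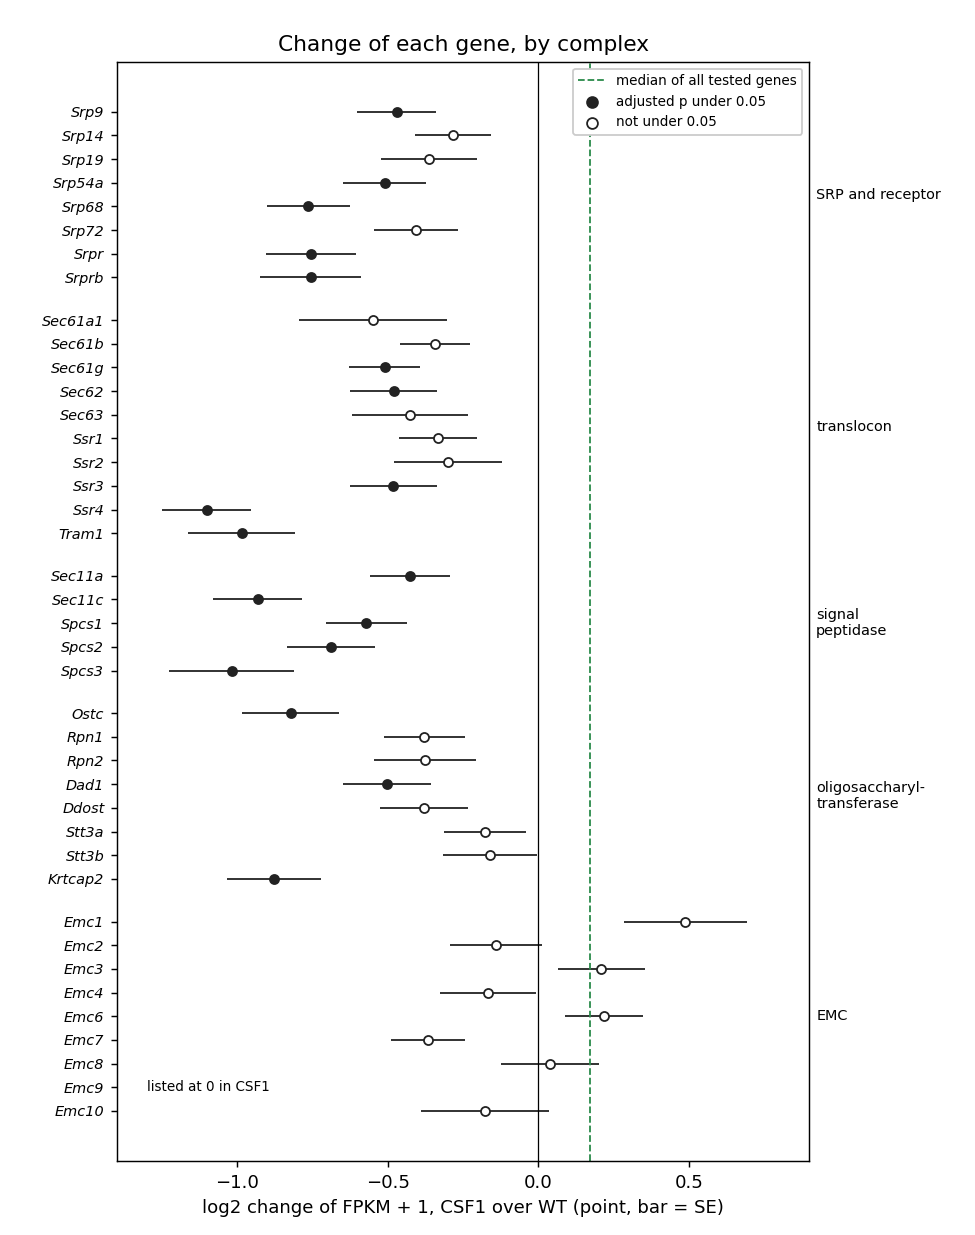
Log2 change of FPKM + 1 (CSF1 over WT) of each gene with its standard error, filled where the limma adjusted p is under 0.05; the dashed line is the median of all tested genes, 0.17. Emc9 has no point because it is listed at 0 in CSF1; Ssr4 stands lowest of the genes drawn, at -1.10.

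Signal peptidase was the complex with every gene lower, against 7.47% of all tested genes. Its 5 genes summed to 1294 ± 138 FPKM in CSF1 and 2268 ± 254 FPKM in WT (SD, n = 3 each), or 57.1% of WT. None overlapped between the groups, while 13.1% of all tested genes had CSF1 below WT without overlap. The median log2 change was -0.69, which is 0.86 below that of all tested genes. Sec11c, a catalytic subunit and the most abundant of the 40 genes, had 767, 826 and 659 FPKM in CSF1 replicates 3, 5 and 8, against 1252, 1451 and 1603 FPKM in the WT replicates (log2 change -0.93 ± 0.15 SE, limma adjusted p 0.00189). Sec11a, the alternative catalytic subunit, had 129.7, 139.6 and 114 FPKM in CSF1, against 155, 174 and 186 FPKM in WT (-0.43 ± 0.13, adjusted p 0.0402). Both differences exceeded the spread between libraries. Sec11a was past the threshold with all libraries and without WT replicate 3, but not when any other single library was left out (log2 changes between -0.49 and -0.35, adjusted p 0.0577 to 0.126) or without the filter on low genes (0.0501).

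The accessory subunits were lower as well. Spcs3, which is needed for the activity of the enzyme, had 54.9, 58.3 and 33.8 FPKM in CSF1, against 99.5, 89.0 and 105 FPKM in WT (log2 change -1.02 ± 0.21 SE, limma adjusted p 0.00616). CSF1 replicate 8 was the low one of its group. Spcs2 had 107 to 142 FPKM in CSF1 and 181 to 219 FPKM in WT (-0.69, adjusted p 0.00775), and Spcs1 had 229.9 to 250.5 FPKM in CSF1 and 308 to 387 FPKM in WT (-0.57, adjusted p 0.0115; 0.0603 without WT replicate 5). Exons of Spcs1 overlap those of Glt8d1 on the opposite strand over 246 bases; Glt8d1 was listed at 0 in all 6 libraries, and the kits named in the labels do not mark strand. Shorter overlaps of this kind join Srpr to Fam118b (50 bases), Rpn2 to Mroh8 (144) and Rpn1 to Mir6376 (131), all 3 partners being listed at 0 in every library.

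Of the 8 oligosaccharyltransferase genes, the noncatalytic subunits Krtcap2, Ostc and Dad1 were lower, against 7.47% of all tested genes. The other 5, catalytic and noncatalytic, did not pass the test. The 8 genes summed to 1683 ± 143 FPKM in CSF1 and 2511 ± 359 FPKM in WT (SD, n = 3 each), or 67.0% of WT. Of them, 5 had CSF1 below WT without overlap, against 13.1% of all tested genes. The median log2 change was -0.38, which is 0.55 below that of all tested genes. Krtcap2 and Ostc, the subunits that join the Stt3a form of the enzyme to the translocon, changed most. Krtcap2 had 432, 469 and 383 FPKM in CSF1 replicates 3, 5 and 8, against 652.7, 819.5 and 899 FPKM in the WT replicates (log2 change -0.88 ± 0.16 SE, limma adjusted p 0.00326). Ostc had 121, 139.5 and 102 FPKM in CSF1, against 181, 227 and 235 FPKM in WT (-0.82 ± 0.16, adjusted p 0.00520). In both genes every CSF1 library was below every WT library.

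Dad1, a small subunit of both forms of the enzyme, had 459, 522 and 482 FPKM in CSF1, against 579.7, 723 and 784 FPKM in WT (log2 change -0.50, limma adjusted p 0.0299). Its groups did not overlap. Its call was kept without WT replicate 3, but not without any other single library (adjusted p 0.0573 to 0.112) or without the filter on low genes (0.0688). The catalytic subunits did not pass the test: Stt3a, which works during translation, had 137, 163 and 135 FPKM in CSF1, against 151, 159 and 183 FPKM in WT (-0.18 ± 0.14 SE, adjusted p 0.361), and Stt3b, which glycosylates sites that were skipped, had 61.8, 60.35 and 47.4 FPKM in CSF1, against 62.7, 55.7 and 71.2 FPKM in WT (-0.16 ± 0.16, adjusted p 0.472). Both overlapped between groups. Rpn1 and Ddost had CSF1 values below all WT values, at adjusted p of 0.0618 and 0.0799, and Rpn2 overlapped (adjusted p 0.125). These results depended on scaling. After quantile normalization and after median-ratio scaling, Stt3a (limma adjusted p 0.0375 and 0.0202), Rpn1, Rpn2 and Ddost were lower. Stt3b was not past the threshold in either (0.102 and 0.0574).

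The Krtcap2 site is shown because Krtcap2 was the only one of the 31 genes with a promoter window that held ATTGGNCCACG, the ER stress response element II (ERSE-II) known from genes induced by the unfolded protein response; 0.0444% of all windows held it on either strand. The longer element ERSE, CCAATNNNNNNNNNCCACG, was in none of the 31 windows and in 0.137% of all. The match covers bases 18 to 28 of the RefSeq window's transcript, in an exon and untranslated region of the annotation, at chr3:89246490-89246500. The 30 bases around it, at chr3:89246481-89246510 (+ strand, GRCm38.p6), are given with the element in capitals.
Krtcap2: gggacacggATTGGACCACGgacggggcgt
Nothing about the activity of any factor follows from these letters.

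Some subunits exist as alternative pairs. A single scaling factor per library leaves the ratio of their FPKM within it as it is, which quantile normalization does not. The log2 ratios given here are differences of log2(FPKM + 1), which such a factor can alter. The log2 ratio of Sec11c to Sec11a was 2.55 ± 0.02 in CSF1 and 3.05 ± 0.05 in WT (SD, n = 3 each), a difference of -0.51 without overlap. The ratio of Stt3a to Stt3b was 1.35 ± 0.19 in CSF1 and 1.37 ± 0.12 in WT, with overlap. Magt1 and Tusc3, alternative oxidoreductase subunits of the Stt3b form that are not among the 40 genes, had a log2 ratio of -0.66 ± 0.11 in CSF1 and 0.49 ± 0.09 in WT, a difference of -1.15. Magt1 was the more abundant of the pair in every WT library and Tusc3 in every CSF1 library. A two-sided exact permutation test gave p = 0.1 for Sec11c to Sec11a and for Magt1 to Tusc3 (0.15 each adjusted over the 3 pairs), the smallest p that 3 against 3 allows, and p = 1 for Stt3a to Stt3b. Magt1 itself was lower, with 25.9, 27.6 and 22.2 FPKM in CSF1, against 48.6, 45.6 and 54.7 FPKM in WT (log2 change -0.95, limma adjusted p 0.00135), and Tusc3 did not pass the test (adjusted p 0.376).

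**Figure D4:**
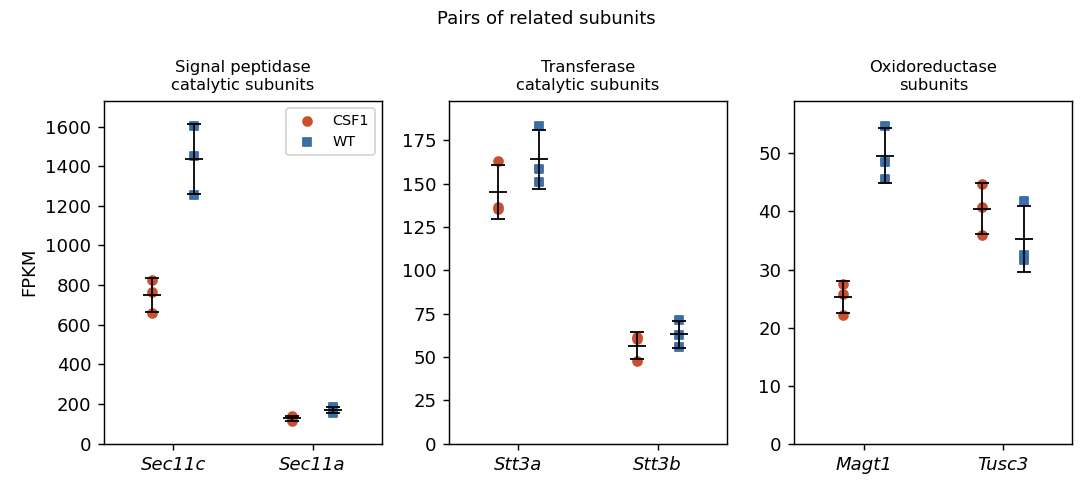
FPKM of 3 pairs of alternative subunits, with CSF1 as circles left of WT as squares, 1 point per library, and bars at the mean ± SD (n = 3). Sec11c and Magt1 lie lower in CSF1 without overlap, and Stt3a, Stt3b and Tusc3 overlap between the groups.

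As deposited, the EMC was the complex with the fewest calls, Emc9 alone, or 11.1% of its genes against 7.47% of all tested genes. Its 9 genes summed to 426 ± 16.99 FPKM in CSF1 and 479 ± 69.6 FPKM in WT (SD, n = 3 each), or 88.8% of WT, and the sums overlapped. The other 8 genes summed to 92.1% of WT with a median log2 change of -0.05, which is 0.22 below that of all tested genes. This count depended on scaling. After quantile normalization and after median-ratio scaling, Emc2 (limma adjusted p 0.0396 and 0.0484), Emc4 (0.0371 and 0.0454) and Emc7 (0.00342 and 0.00234) were lower too. That the EMC differs from the other complexes was not tested. Emc3 and Emc6, which form the insertase core in the membrane, had 45.6, 51.7 and 46.7 FPKM and 61.5, 72.8 and 76.4 FPKM in CSF1, against 36.2, 40.4 and 48.1 FPKM and 61.5, 58.7 and 59.8 FPKM in WT, at limma adjusted p of 0.308 and 0.238. The CSF1 and WT values of Emc6 came within a rounding step of each other in replicate 3. Emc1, a large subunit reaching into the ER lumen, had 7.62, 9.12 and 8.33 FPKM in CSF1, against 4.03, 6.30 and 7.01 FPKM in WT (log2 change 0.49 ± 0.20 SE, adjusted p 0.104). Its CSF1 values lay above its WT values without overlap.

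Emc7, another subunit with a lumenal domain, had 92.1 to 99.9 FPKM in CSF1 and 113 to 135 FPKM in WT (log2 change -0.37, limma adjusted p 0.0516). It was the only EMC gene besides Emc9 with CSF1 below WT without overlap. Emc2, a cytosolic scaffold, Emc4, Emc8 and Emc10 overlapped between the groups, with log2 changes between -0.18 and 0.04 and adjusted p between 0.467 and 0.883. As deposited, 4 EMC genes had changes above 0 (Emc1, Emc3, Emc6 and Emc8); with median-ratio scaling Emc1 alone did.

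Emc9 and Emc8 are alternative subunits that occupy the same place on Emc2. Emc9 was listed at 0 in all 3 CSF1 libraries, with an upper bound of the Cufflinks confidence interval of at most 0.0811 FPKM, and at 15.3, 16.5 and 19.0 FPKM in WT replicates 3, 5 and 8. No fold is given against a listed 0. Emc8 had 7.54, 6.26 and 5.88 FPKM in CSF1, against 5.73, 7.00 and 6.30 FPKM in WT, and did not pass the test. The locus of Emc9 overlaps that of Psme1, a proteasome activator gene on the opposite strand, by 4 bases at chr14:55581524-55581527 (mm10). Psme1 was higher in CSF1, at 195, 173 and 239 FPKM, against 57.6, 65.7 and 73.6 FPKM in WT (log2 change 1.60, limma adjusted p 0.000175).

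In CSF1, 10% of the Psme1 level was 17.3 to 23.9 FPKM; in WT, Emc9 stood at 25.1% to 26.6% of Psme1. Cufflinks by default leaves out transcripts under 10% of the most abundant transcript of the same gene. Emc9 and Psme1 are different genes, and whether any such cutoff acted between them was not tested. The setting that the authors chose is unknown. Over 1103 gene pairs whose exons overlap on opposite strands, the smaller gene was listed at 0 in 45.6% of 3532 pair and library values with the larger at 10 FPKM or more, and lay above 0 but under 10% of the larger in 14.2%. Over 2908 pairs on opposite strands within 5000 bases without overlap, these shares were 12.9% and 42.6% of 9536 values. In all, 4 genes were listed at 0 in every CSF1 library and at 5 FPKM or more in every WT library, Emc9, Hcfc1r1, Lppos and Scgb1b27, and Emc9 and Hcfc1r1 overlap another gene in this way. In the opposite direction, 7 genes were listed at 0 in every WT library and at 5 FPKM or more in every CSF1 library, and 5 of them overlap another gene in this way. The share of all genes with such an overlap was not counted, so no excess can be read from these few genes. Whether the zeros of Emc9 come from the overlap was not tested.

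**Figure D5:**
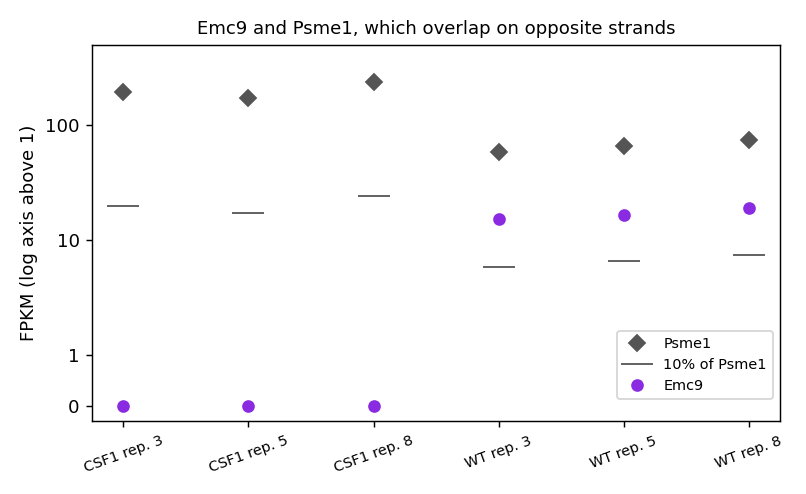
FPKM of Emc9 (circles) and Psme1 (diamonds) in each library, with a dash at 10% of Psme1, on an axis that is logarithmic above 1. Emc9 lies at 0 in the 3 CSF1 libraries, where the dash is at 17.3 to 23.9 FPKM, and above the dash at 15.3 to 19.0 FPKM in the 3 WT libraries.

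Genes of neighbouring steps were counted in the same way, to be read against the 7.47% of all tested genes that were lower and the 24.9% that were higher. Of 8 tested other subunits of the same complexes, 5 were lower (Magt1, Tmem258, Srp54b, Srp54c and Ost4) and none was higher, with a median log2 change of -0.42. Tmem258, a subunit of the oligosaccharyltransferase, had 583, 585 and 541 FPKM in CSF1, against 776, 783 and 894 FPKM in WT (limma adjusted p 0.0120). Of 23 genes that build the dolichol-linked glycan donor, 5 were lower and none was higher, with a median of -0.31; with pairing, Srd5a3 was higher (adjusted p 0.0330, against 0.0713 without). Among them, Dpm3, which anchors the dolichol-phosphate mannose synthase, had 86.5, 84.8 and 74.2 FPKM in CSF1, against 134.5, 159 and 154 FPKM in WT (log2 change -0.86, adjusted p 0.001435). Alg5 (-0.88, adjusted p 0.0105), the dolichol-phosphate glucosyltransferase, and Alg11 (-0.70, adjusted p 0.0136), a mannosyltransferase, were the other large changes.

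Downstream of glycan transfer, 6 of 13 tested genes of glycan trimming and the calnexin cycle were lower and none was higher, with a median log2 change of -0.45. Edem2, a mannosidase-like protein of ER-associated degradation, had 82.6, 87.8 and 50.7 FPKM in CSF1, against 153, 179.8 and 202 FPKM in WT (log2 change -1.29, limma adjusted p 0.00248). Edem1 and Lman1, a cargo receptor, were lower by 0.97 and 0.96 on the log2 scale. Of 13 tested regulators and targets of the unfolded protein response, 5 were lower and none was higher, with a median of -0.36. Hspa5, the main ER chaperone, had 1865, 1672 and 1235 FPKM in CSF1, against 3922, 3010 and 3288 FPKM in WT (-1.11, adjusted p 0.00246); Ddit3 (-1.53) and Creb3l4 (-1.01) were also lower. Xbp1 was past the threshold with pairing (log2 change -0.33, adjusted p 0.0448, against 0.0533 without). For each of these named genes, every CSF1 value was below every WT value.

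Genes of other insertion routes were counted too, again beside the 7.47% of all tested genes that were lower and the 24.9% that were higher. Of 8 tested genes of tail-anchored protein insertion, 2 were lower (Get4 and Ubl4a) and none was higher, with a median log2 change of -0.11. Get4 had 33.5, 37.8 and 35.0 FPKM in CSF1, against 46.3, 55.3 and 62.7 FPKM in WT (limma adjusted p 0.0139). Of 6 translocon partners for multipass membrane proteins, Nomo1 was lower (-0.54, adjusted p 0.0317) and the other 5 did not pass, with a median of -0.05. At an unadjusted p under 0.05 in limma, 1 dolichol pathway gene was higher and no gene of the other 5 lists was. The lower genes at that threshold numbered 5 of the other subunits, 7 of the dolichol pathway, 8 of glycan trimming, 7 of the unfolded protein response, 2 of tail-anchored insertion and 1 of the multipass partners, against 11.2% of all tested genes. No difference between these lists was tested.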

How the data were processed

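RNA of 6 libraries (3 CSF1, 3 WT) was measured by RNA sequencing. The labels' protocols describe cDNA synthesis with SMART-Seq v4, primed both randomly and with oligo-dT, and name both Nextera XT and TruSeq DNA for library construction. Per the submitters' processing notes, bcl2fastq 1.8.3, TopHat and Cufflinks were used with mm10. The deposited tables give FPKM for 34535 RefSeq transcripts, scaled by the authors to transcript length and mapped fragments, per the file headers. The deposited coverage column is a read depth signal proportional to FPKM within a table and served only as an indicator of depth; fragments per value are not given, so no counting interval is stated.

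FPKM was summed per gene, and 9 genes with failed or skipped loci were left out, none of them among the 40. Tests used log2(FPKM + 1), a mean of at least 1 FPKM, and limma 3.58.1 (trend, two-sided, Benjamini-Hochberg over 10951 genes) in R 4.3.3 with the package data.table (version 1.17.8). The same test was run over transcripts. The script was tested on simulated data. Alternatives were other pseudocounts, filters and scalings, the replicate block, a robust fit, the most abundant transcript alone, and leaving out each library. Deviations from the group mean correlated between libraries of the same number at 0.26, 0.11 and 0.18 (numbers 3, 5 and 8). Between libraries of different numbers the correlations were -0.23 to -0.006. Deviations within a group sum to 0, so such a pattern can arise without pairs. The labels do not say what the title numbers mean, so pairing is not established. The fit paired by number is an alternative, and its value is given where it changes a call among the 40 genes or the other lists. Promoter windows are from RefSeq (GRCm38.p6), with 31 of the 40 genes matched; exon overlaps were read from GENCODE M21.

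Named genes are all 40, Csf1, genes overlapping them, the largest called changes in each other list and the most abundant markers; Tusc3, Emc9's companions at 0 and other single genes were named after their values were seen. The 40 genes and all lists were chosen with earlier results of these data known.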

Additional observations from a re-analysis of the deposited data

How the results depend on the processing

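Depth in fragments is not given, and low genes such as Emc1 and Emc8 are the least certain. Of the 19 lower genes, 12 were past the threshold in all 15 alternatives (Emc9, Krtcap2, Ostc, Sec11c, Sec61g, Spcs2, Spcs3, Srp68, Srpr, Srprb, Ssr4 and Tram1), and 7 were not in at least 1 (Dad1, Sec11a, Sec62, Spcs1, Srp54a, Srp9 and Ssr3). All alternatives start from the same deposited FPKM, so none of them tests whether the zeros of Emc9 come from its overlap with Psme1. Another 15 of the 40 were lower past the threshold in at least 1 alternative, and 6 were past it in none (Emc1, Emc3, Emc6, Emc8, Emc10 and Stt3b). None of the 40 was higher in any alternative. Genes lower among the 40 numbered 33 (quantile normalization), 34 (median-ratio scaling) and 13 to 21 with 1 library left out.

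Over all tested genes, 2731 were higher and 818 lower; the higher ones numbered 1761 with a filter at 5 FPKM and 1694 with quantile normalization, and the lower ones 2362 (quantile), 1757 (median-ratio) and 478 to 850 with 1 library left out. The filter tests fewer genes; for the scalings the cause was not tested. The median log2 change of all genes was 0.17 as deposited, -0.16 with quantile normalization and -0.03 with median-ratio scaling. Relative to it, the medians under quantile normalization were -0.52 for SRP and receptor, -0.72 for signal peptidase and -0.18 for the EMC, whose median with 1 library left out ran from -0.42 to -0.18. The sign of 4 uncalled EMC genes turned: Emc8 was at 0.04 as deposited, -0.31 and -0.16 with quantile and median-ratio scaling, and between -0.052 and 0.104 with 1 library left out; Emc3 was at -0.017 and Emc6 at -0.011 with median-ratio scaling; and Emc10 ranged from -0.39 to 0.064 with 1 library left out. With the replicate block, 22 of the 40 were lower, Sec61b, Srp19 and Srp72 being added, and 2883 genes in all were higher and 890 lower; it changed no other call of the 40 and no transcript call.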
